A study of Mus musculus with 12 samples.

Results

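The genes described here encode the enzymes that place methyl groups on histone lysines and the enzymes that remove them. They were chosen by name alone: the lysine methyltransferase genes Kmt2, Kmt5, Setd, Setdb, Nsd, Ehmt, Suv39h, Ezh, Dot1l and Ash1l, the Prdm genes, and the lysine demethylase genes Kdm1 to Kdm8. Of 14071 gene names with a peak in either deposited list, 50 matched, 49 of them protein-coding. The other match, Kdm6bos, is a transcript of the strand opposite to Kdm6b. The name rule also takes in proteins that do not act mainly on histones, such as Setd3, which methylates actin, and Prdm genes that act as DNA-binding transcription factors.

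The series mapped N6-methyladenosine (m6A), the methyl mark on adenosines of messenger RNA. The cells were BV2, a mouse microglial line grown as an immortal culture, under lipopolysaccharide (LPS), a bacterial cell wall component that activates microglia. The groups were wild-type (WT) cells with LPS and Mettl3 knockout (KO) cells with LPS, each with 3 libraries of RNA pulled down by an m6A antibody (IP) and 3 of input RNA, 12 in all. LPS was thus common to both genotypes, and an untreated group was not analysed here. The labels used here do not say how the knockout was made or whether it is 1 clone. The values come from 1 deposited peak list per genotype, so no replicate spread could be measured and no difference was tested. The lists were made separately, and genotype cannot be told apart from pull-down efficiency or scaling of a list. Depth per library is unknown here. Mettl3 itself had 3 peaks in WT and 6 in KO, the strongest at log2 1.57 and 2.07 of IP over input; enrichment is no measure of RNA amount, so this does not check the knockout.

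Histone lysine methylation works by site. Methylation of H3K4 marks active promoters and enhancers, that of H3K36 the bodies of transcribed genes, and that of H3K9 and H3K27 silenced chromatin. METTL3 places m6A together with METTL14 while RNA is being made, and METTL14 has been reported to bind the H3K36 mark that SETD2 writes. The m6A reader YTHDC1 has been reported to bring the H3K9 demethylase KDM3B to chromatin. In macrophages, LPS induces Kdm6b, which removes the H3K27 mark.

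The labelled cell type was looked up first. Of 12 microglia and macrophage markers, 10 had a peak in both lists, among them Csf1r, Trem2 and Spi1, and P2ry12 and C1qa had none. Of 8 markers of neuroblastoma, which the extraction protocol names as the source cells, 1 (Gata3) had a peak. So had 1 of 4 neuron markers (Tubb3) and 1 of 6 astrocyte and oligodendrocyte markers (Mbp). A peak needs both m6A-antibody enrichment and RNA, so a missing peak is not a measure of expression.

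At the median, the histone methylation genes carried more peaks than all genes and were also longer. The WT list held 295 of their peaks on 49 genes, out of 36682 peaks, and the KO list 337 on 50 genes, out of 41153. Their median was 5 peaks per gene in WT and 6 in KO, against 2 and 2 over all genes with a peak in either list, and their median genomic span was 48222 bases against 18226. Kmt2a, the H3K4 methyltransferase of leukaemia translocations, carried 13 WT and 15 KO peaks, and Kmt2c 12 and 14. At the other end, Kdm4b, Kdm8 and Prdm9 each carried 2 in either list, and Setd6 carried 2 and 1. The KO list had more peaks than the WT list for 24 of the 50 genes, fewer for 12 and as many for 14. Over all genes these shares were 40.2%, 26.0% and 33.7%.

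A further 14 RefSeq symbols matched the names and had no peak in either list. They included the H3K4 demethylase Kdm5b and its Y-linked relative Kdm5d, Kdm4d and Kdm4dl, Prdm1, Prdm6, Prdm8, Prdm11, Prdm12, Prdm13, Prdm14, Prdm16 and Prdm16os. Thus 5 Prdm genes carried peaks (Prdm2, Prdm4, Prdm9, Prdm10 and Prdm15). Kdm6bos had a KO peak of 498 bases and log2 0.63 (adjusted p = 0.0277), on chromosome 11 from 69401963 to 69402460, plus strand, annotated as a noncoding exon. It lay inside Kdm6b, where a Kdm6b peak of 0.55 in WT covered all of it on the other strand and one of 0.63 in KO a part. Whether reads were counted by strand is not stated, so reads of the pair cannot be told apart. Among all genes with a peak, 5.02% had one in KO alone and 7.41% in WT alone. None of the 50 had a peak in WT alone.

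Some peaks reached the start of a transcript, and there the sequence under the peak can be shown from RefSeq. Of the 50 genes, 36 had an entry in the RefSeq promoter table of build GRCm38.p6, with 52 start sites. Of these, 14 sites had their first 50 transcribed bases wholly inside a peak of that gene. The core of the m6A consensus was searched in them on the transcribed strand. It can be AAAC (in 12.9% of all start sites), AGAC (17.4%), GAAC (14.6%) or GGAC (18.9%), which cannot overlap one another. At least 1 of the 4 was found in 6 of these 14, against 50.8% of 32851 start sites in the whole table. The 6 stretches of 30 bases are shown with the motifs in capitals, because they let a reader see the letters that a 5' peak covers. The lists name no build, so the placement assumes GRCm38: of 49 genes in both sources, all 49 overlapped their RefSeq position and 46 had a start or end within 100 bases of it.
Kdm2b, chr5:122989061-122989090, minus strand: aaatggtttcctaGGACtttgcAAACggat
Kdm5c, chrX:152233227-152233256, plus strand: gtgggggggaggAGACgctgacAAACcaag
Setd7, chr3:51560778-51560807, minus strand: cccagagcctccgGGACcggGGACgagagg
Kdm3a, chr6:71609090-71609119, minus strand: taggggaggagctagAGACttcttttgtaa
Kmt2a, chr9:44881260-44881289, minus strand: acttacggggcGAACatggcgcacagctgt
Prdm9, chr17:15563302-15563331, minus strand: gaccataGGACcctGGACctctccagtgaa
The first 4 lay under a peak in both lists. The Kdm2b stretch lay under the strongest peak of that gene, at log2 2.53 in WT and 2.42 in KO. The Kdm5c stretch lay under a peak with identical coordinates in both lists (0.71 and 0.59), the Setd7 stretch under one of 0.77 and 0.70, and the Kdm3a stretch, at an internal start site, under one of 1.46 and 0.93. The Kmt2a and Prdm9 stretches lay under a KO peak (1.26 and 0.99) with no WT peak over them. A match describes letters in a window and does not place a methylated base.

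A gene's value below is the log2 of IP over input of its strongest peak in a list, as the authors deposited it, and differences are KO minus WT. The strongest peaks of the histone methylation genes ranged from 0.74 (Kdm4c) to 3.68 (Nsd1) in WT and from 0.59 (Suv39h1) to 3.18 (Nsd1) in KO. The median over the 49 genes in both lists was 1.75 in WT and 1.25 in KO, against 1.34 and 1.08 over all 12321 genes with a peak in both. A value of 2 or more, which is 4-fold enrichment, was reached by 15 of 49 genes in WT (28.0% of all genes with a WT peak did so) and by 6 of 50 in KO (11.4% of all). The 6 were Nsd1, Kmt5b, Kdm3b, Kmt2d, Kdm2b and Kdm4b, and each had also passed it in WT.

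For 45 of the 49 genes the KO value was the lower one, while 73.4% of all genes had a lower KO value. The median difference was -0.52 (95% order-statistic interval -0.61 to -0.36), beside -0.25 (-0.26 to -0.24) over all genes. Large differences were few: 2 of the 49 were lower in KO by 1 or more, which is 2-fold (9.54% of all genes), and none was higher by 1 or more (0.714% of all). At 1.5-fold or more, 19 were lower (28.0% of all genes) and 1, Kdm1a, higher (2.22%). The 2 genes past 2-fold were Kdm4b at -1.27 and Setd5 at -1.26. Short peaks gave much smaller differences: with peaks of at most 1000 bases, 26 of 45 genes stood lower in KO. The share over all genes was not computed at that setting, but the median difference was -0.04 against -0.05 over all genes. With peaks of any width, just short of 2-fold stood Nsd2 at -0.95, Prdm9 at -0.94, Kdm8 at -0.93 and, in the other direction, Kdm1a at 0.99. Among genes of 4-fold or more in WT, 2 of 15 were lower by 1 or more, with a median of -0.66, against 32.9% of all such genes, with a median of -0.83. Among genes between 1 and 2 in WT, none of 28 was, against 1.38% of all such genes, and their median was -0.53 against -0.30. That range is wide, and the 28 genes lay higher in it, at a median WT value of 1.60 against 1.38. Between 1.5 and 2 in WT, the medians were -0.54 for 20 genes and -0.52 over all genes. Between 1 and 1.5 they were -0.35 for 8 genes and -0.21 over all genes.

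**Figure D1:**
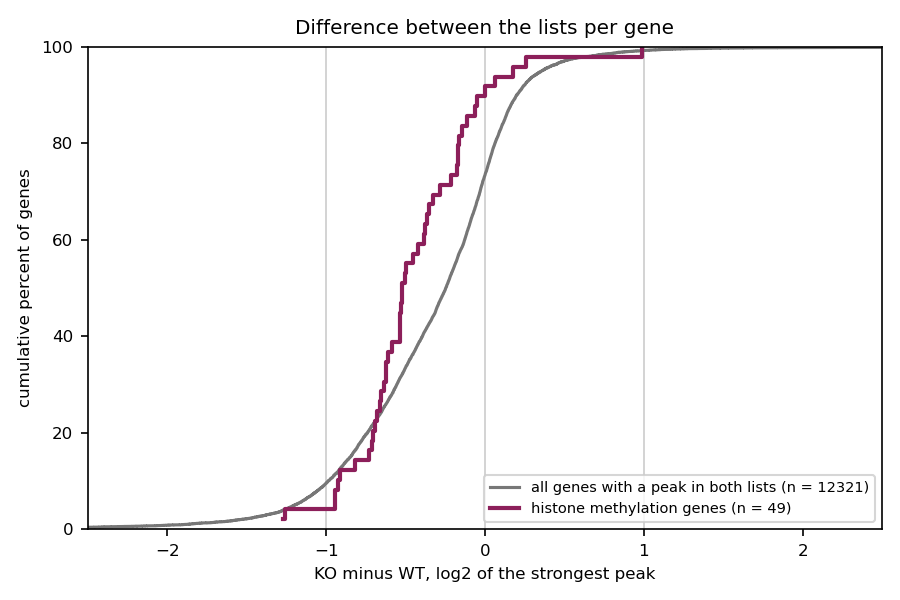
Cumulative percent of genes against the difference between the lists (KO minus WT, log2 of the strongest peak), for 49 histone methylation genes and for 12321 genes with a peak in both lists. The axis is cut at both ends, so some of all genes lie outside it. The curve of the histone methylation genes crosses 50% at -0.52 and that of all genes at -0.25, while their lower quartiles are close, at -0.66 and -0.64.

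**Figure D2:**
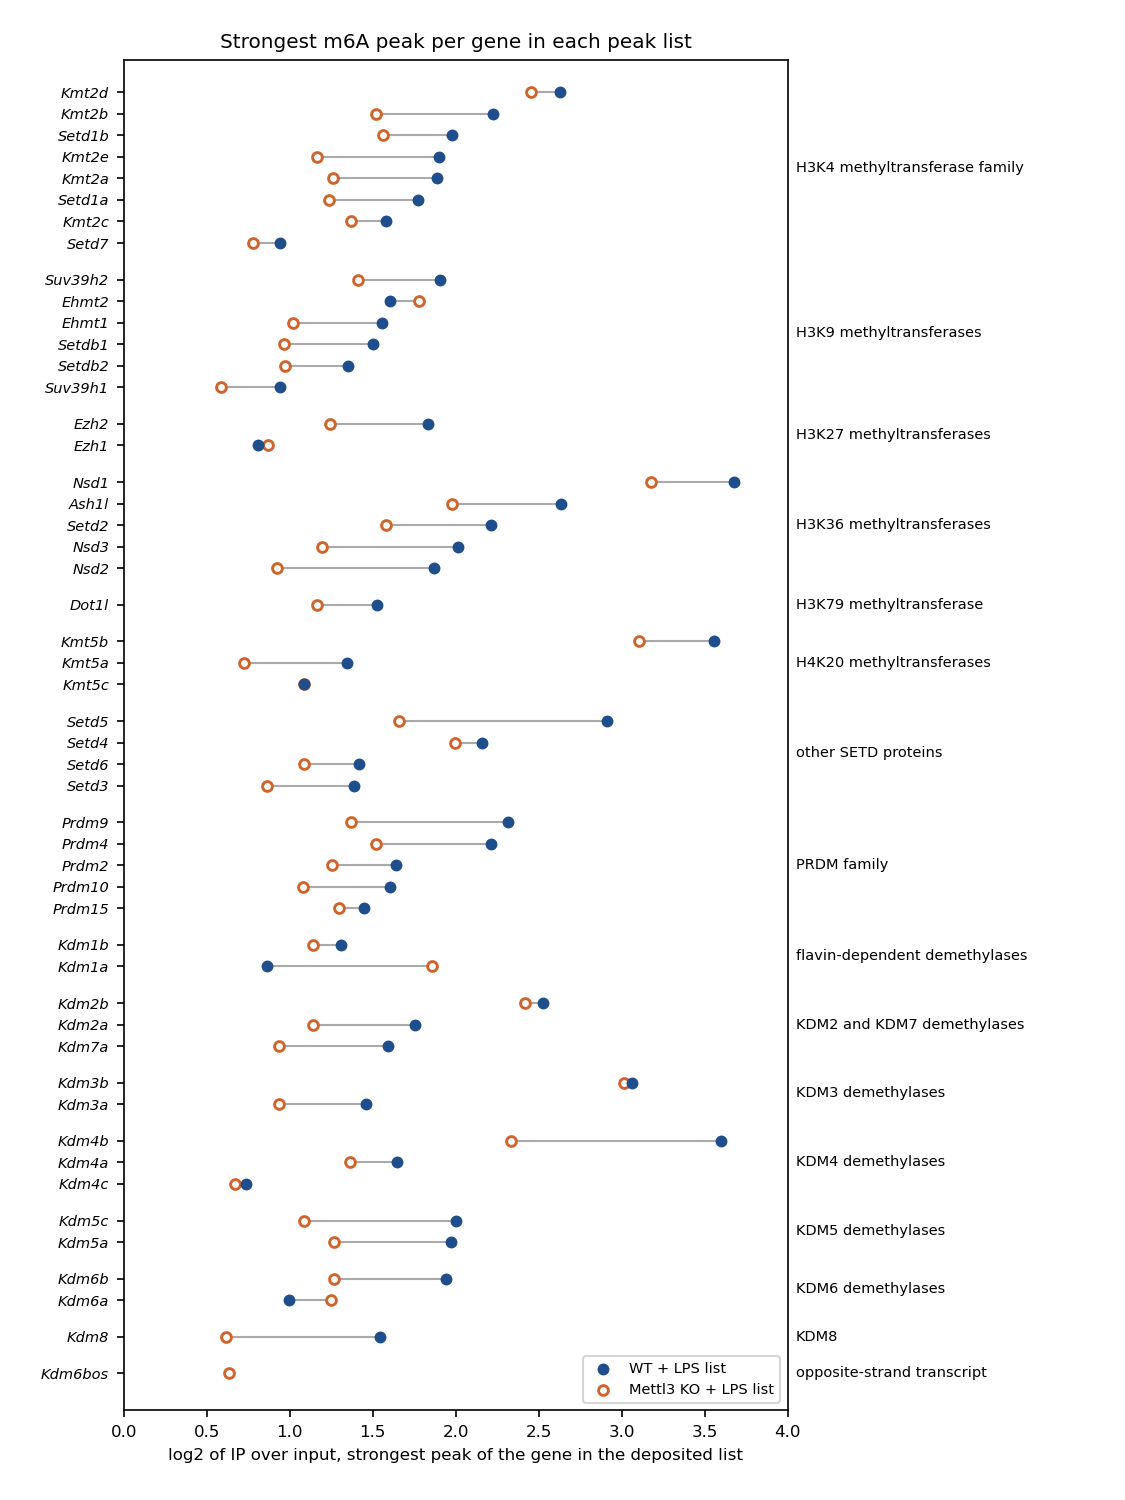
Log2 of IP over input of the strongest peak of each gene in the WT list (filled) and the KO list (open), grouped by the site or family of the enzyme and joined by a line. For 45 of 49 genes the open point lies to the left; Kdm1a, Kdm6a, Ehmt2 and Ezh1 are the exceptions, and Kdm6bos has a KO point alone.

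The 8 genes of the H3K4 methyltransferase family all had a lower KO value (73.4% of all genes did), with a median difference of -0.48. With peaks of at most 1000 bases, Kmt2a (0.42), Kmt2b (0.46), Kmt2c (0.55), Setd1a (0.059) and Setd1b (0.0017) turned order. Kmt2d, Kmt2e and Setd7 stayed lower in KO at that setting. Kmt2d and Kmt2c, which methylate enhancers, differed little in their strongest peaks, at 2.63 in WT and 2.45 in KO and at 1.58 and 1.37. Among their other matched peaks, the widest gaps were 1.68 and 1.15 in Kmt2d and 1.21 and 0.86 in Kmt2c. The strongest Kmt2d peak lay in coding exons on chromosome 15, minus strand, from 98841747 to 98850926 in WT. In KO the same stretch held 2 peaks, of 2.45 and 1.42. Kmt2b stood at 2.23 and 1.52 and Kmt2a at 1.89 and 1.26. Kmt2e, a family member for which no methyltransferase activity is established, stood at 1.90 and 1.16. Setd1b (1.98 and 1.56) and Setd1a (1.77 and 1.24), the catalytic subunits of the SET1 complexes at promoters, had their strongest WT peaks in coding exons, as had the 4 Kmt2 genes other than Kmt2a. Setd7, a monomethyltransferase that also modifies non-histone proteins, was weakly marked in spite of 11 WT peaks, at 0.94 and 0.78.

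The 5 H3K36 methyltransferase genes were the role group with the highest median WT value among those with 3 or more genes, 2.21. All 5 were lower in KO (73.4% of all genes were), with a median difference of -0.66. Nsd1, a dimethyltransferase, had the strongest peak of the 50 genes in both lists. It lay in the 5' UTR on chromosome 13, plus strand, from 55212592 to 55214302 in WT, at 3.68 (adjusted p = 2.15e-137), and from 55212592 to 55214327 in KO, at 3.18 (4.67e-75). Further along Nsd1 the gap was wider: a 22579-base WT peak stood at 2.62 and the KO peak that covered most of it at 1.50, and a peak near the 3' end at 2.33 and 1.33. The same gene thus held a peak that differed by 0.50 and others that differed by more than 1. Nsd2, whose gene is on chromosome 5, stood at 1.87 and 0.92, and at the place of its strongest WT peak (33876568 to 33878366, plus strand, adjusted p = 1.6e-36) the KO list gave 0.79. Nsd3 stood at 2.01 and 1.19, and Ash1l at 2.64 and 1.98 in a peak that begins at the first base of the gene.

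Setd2, which writes trimethylated H3K36, had 6 WT and 8 KO peaks. Its strongest lay at 2.21 in WT and 1.58 in KO, on chromosome 9, plus strand, from 110570539 to 110594613 in WT and to 110594513 in KO. The authors annotated it as 3' UTR, although its end lies 24020 bases before the end of the gene. The first WT peak of Setd2 covered 17215 bases from the gene start at 1.79. In the KO list the same stretch held 2 peaks near its far end, the stronger of them at 1.16, and none at the start of the gene.

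Among the H3K9 methyltransferase genes, 5 of 6 were lower in KO (73.4% of all genes were), and the median difference was -0.44. Suv39h2 stood at 1.91 and 1.41, in a 3' UTR peak on chromosome 2, minus strand, from 3458240 to 3472574 in WT (adjusted p = 1.2e-134). Its paralogue Suv39h1, on the X chromosome, stood at 0.94 and 0.59, and Setdb1 and Setdb2 at 1.50 and 0.96 and at 1.35 and 0.97. The partners Ehmt1 and Ehmt2, which act as a heterodimer on H3K9, went opposite ways. Ehmt1 was at 1.56 in WT and 1.02 in KO, while Ehmt2 was at 1.60 and 1.78 in nearly the same coding-exon peak. The order of Ehmt2 turned with the mean over its peaks (a difference of -0.04) and with its short peaks (-0.10).

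The catalytic subunits of Polycomb repressive complex PRC2 also differed in order. Ezh2, the main H3K27 methyltransferase of dividing cells, stood at 1.83 in WT and 1.24 in KO, in a 5' UTR peak on chromosome 6, minus strand, from 47561805 to 47577830 in WT (adjusted p = 2.42e-64). Ezh1 was weak in both lists, at 0.81 and 0.87, in a 225-base peak at the end of the gene with identical coordinates in both. Dot1l, the H3K79 methyltransferase, stood at 1.53 in WT (chromosome 10, plus strand, 80792957 to 80794606, 3' UTR, adjusted p = 8.45e-235) and at 1.17 in KO, at a neighbouring place.

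The 3 H4K20 methyltransferase genes spanned nearly the whole range. Kmt5b, which adds further methyl groups after the first, stood at 3.56 in WT and 3.11 in KO. That peak was annotated as 3' UTR on chromosome 19, plus strand, from 3808298 to 3816951 in WT and from 3808648 to 3816576 in KO. The KO list also had a 12387-base 5' peak of 1.49 (adjusted p = 0.000458) over which the WT list had none. Kmt5a, which adds the first methyl group, stood at 1.35 and 0.72, and Kmt5c at 1.09 in both lists, with a difference of -0.0026.

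Setd5, a chromatin protein whose own methyltransferase activity is disputed, had one of the largest gaps, at 2.91 in WT and 1.66 in KO, or 7.54-fold and 3.15-fold. The peak was annotated as 3' UTR on chromosome 6, plus strand, from 113143683 to 113152863 in WT and from 113143783 to 113152713 in KO. The remaining Setd5 peaks were weak, from 0.47 to 0.74 in WT and from 0.39 to 0.86 in KO, and with peaks of at most 1000 bases the order of Setd5 turned, to a difference of 0.11. Setd4 (2.16 and 1.99), Setd6, which methylates the NF-kB subunit RelA (1.42 and 1.09), and the actin methyltransferase Setd3 (1.39 and 0.86) were lower in KO by at most 0.52.

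The 5 Prdm genes with peaks were all lower in KO (73.4% of all genes were), with a median difference of -0.53. Prdm9, which marks recombination sites in germ cells, had the highest WT value of them, 2.31 (chromosome 17, minus strand, 15543679 to 15555189, 3' UTR, adjusted p = 6.16e-212), against 1.37 in KO. Prdm4 stood at 2.21 and 1.52, Prdm2 at 1.64 and 1.25, Prdm10 at 1.60 and 1.08 and Prdm15 at 1.45 and 1.30.

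Of the 15 demethylase genes, 13 stood lower in KO than in WT (73.4% of all genes did). Their median difference was -0.53, close to the -0.50 of the 25 genes in the methyltransferase role groups. The KDM4 family acts on H3K9 and H3K36. Kdm4b had its strongest peak over the last 2904 bases of the gene in WT (chromosome 17, plus strand, 56399967 to 56402870, 3' UTR), at 3.60, or 12.1-fold. The KO peak there, from 56400017 to 56402870, stood at 2.33, or 5.03-fold (adjusted p = 3.61e-224). Kdm4a stood at 1.65 and 1.36 in peaks with identical coordinates, and Kdm4c at 0.74 and 0.67 at different places.

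The H3K9 demethylase Kdm3b differed little in its strongest peak. Its strongest peak had the same coordinates in both lists, from base 34777047, the first of the gene, to 34794727 on chromosome 18, plus strand, in the 5' UTR. It stood at 3.06 in WT (adjusted p = 4.9e-98) and 3.01 in KO (8.2e-156). A further Kdm3b peak in coding exons stood at 1.65 in WT, and the same stretch in KO held peaks of 1.20 and 0.92. The related Kdm3a was at 1.46 and 0.93.

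The KDM2 and KDM7 genes, JmjC enzymes with a PHD finger, were lower in KO in all 3 cases (73.4% of all genes were lower). Kdm2b, a component of a variant Polycomb complex, had its strongest peak in the 5' UTR on chromosome 5, minus strand, from 122989032 to 122989724 in WT (2.53, adjusted p = 3.33e-10) and from 122988526 to 122989699 in KO (2.42). The 5' Kdm2b peak, which holds the Kdm2b stretch shown above, differed by 0.11, whereas the 3' UTR peak of the same gene stood at 2.18 and 1.32, a difference of -0.86. Kdm2a stood at 1.75 and 1.14 and Kdm7a at 1.59 and 0.94.

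The H3K4 demethylases Kdm5c and Kdm5a had similar values, at 2.00 and 1.09 and at 1.97 and 1.27. The Kdm5c peak covered a 3' UTR stretch of the X chromosome, plus strand, from 152270760 to 152274075 in WT. A 235-base Kdm5c peak next to it, at the end of the gene, had identical coordinates in both lists and stood at 0.61 and 0.67. Of the flavin-dependent demethylases, Kdm1b stood at 1.31 (chromosome 13, plus strand, 47079213 to 47083384) and 1.14. Kdm1a (LSD1) was the gene furthest above its WT value, at 0.86 in WT and 1.85 in KO. The KO value came from an intronic peak of 150 bases on chromosome 4, minus strand, from 136553153 to 136553302 (adjusted p = 0.000208), with no WT peak over it. At the end of the gene, where the WT value was measured, the KO list gave 0.74 for a peak of the same coordinates.

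Kdm6b (JMJD3) had 6 WT and 9 KO peaks. Its strongest lay in coding exons on chromosome 11, minus strand, from 69403832 to 69405820 in WT (1.94) and from 69403426 to 69405245 in KO (1.26, adjusted p = 8.45e-54). Where the WT list had this 1989-base peak the KO list had 3, the others at 0.47 and 0.63. Peaks elsewhere in Kdm6b lay between 0.55 and 0.86 in WT. Kdm6a, its X-linked paralogue, went the other way, at 0.99 and 1.25, with the KO peak near the gene end and the WT peak 25162 bases before it. Kdm8, a JmjC hydroxylase, stood at 1.54 (chromosome 7, plus strand, 125461731 to 125462269, 3' UTR, adjusted p = 1.28e-07) and 0.61 (adjusted p = 0.0123), and its other peak at 1.37 and 0.58 (0.0493 in KO). Both Kdm8 peaks thus had an adjusted p between 0.01 and 0.05 in KO.

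**Figure D3:**
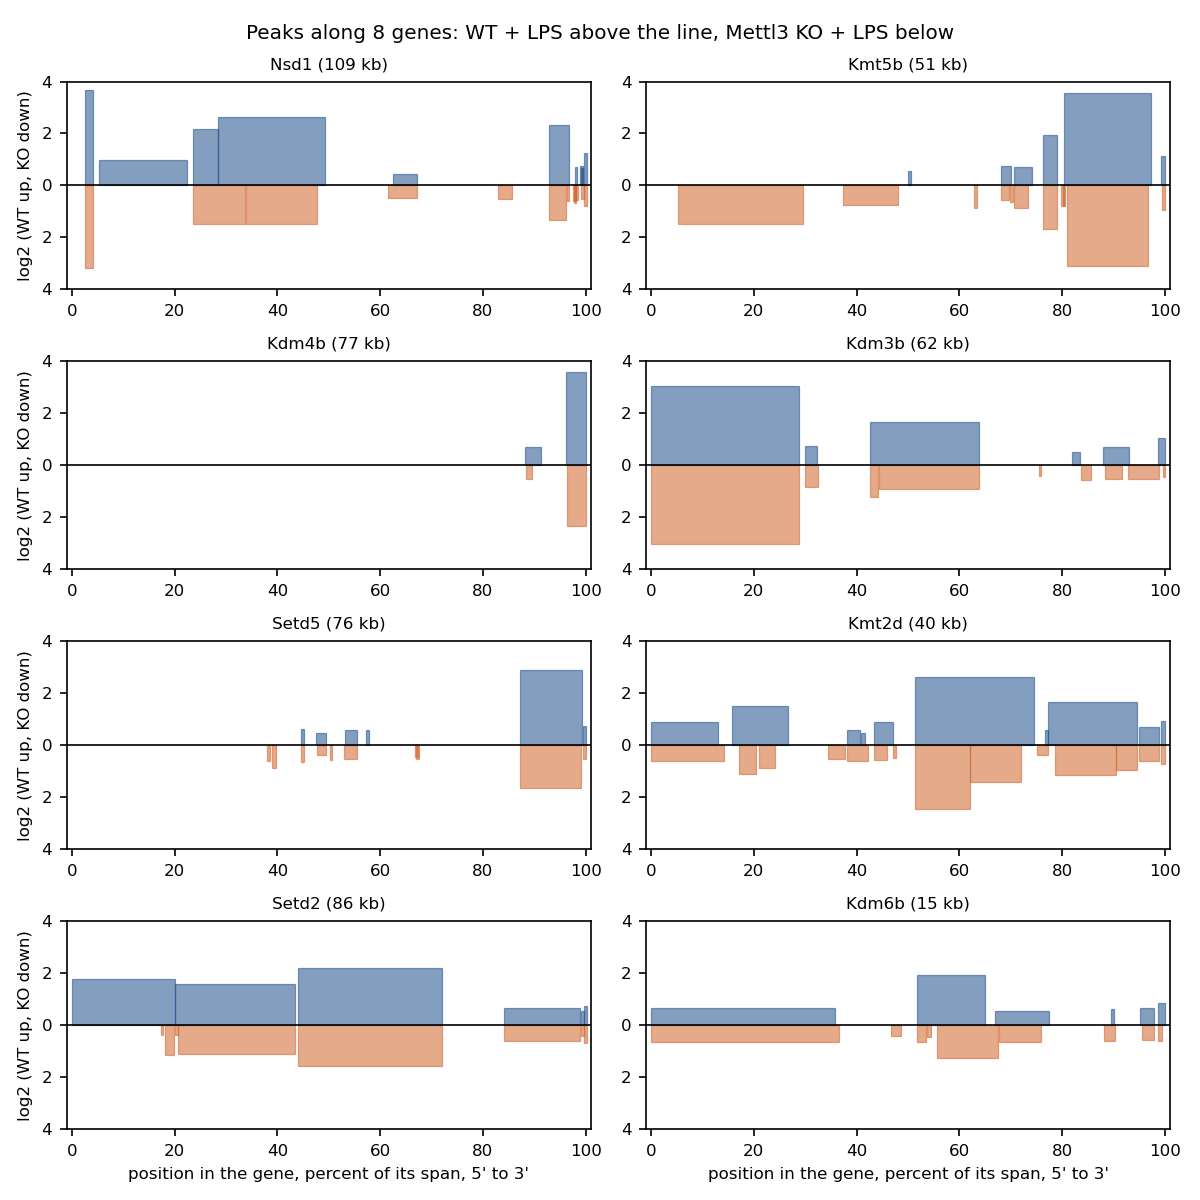
Deposited peaks along 8 genes, with position as percent of the gene's span from 5' to 3' and the log2 of IP over input as bar height, WT upwards and KO downwards. Bar width is the genomic span of a peak, introns included, with a minimum drawn width of 0.5% of the gene. Kdm4b and Setd5 have a tall 3' peak that is shorter in KO, the 5' peak of Kdm3b is alike in both lists, and the 5' WT peak of Setd2 has smaller KO peaks beneath its far end.

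The strongest WT and KO peaks overlapped for 33 of the 49 genes, and 31 of those 33 were lower in KO. For the other 16 (25.7% of all genes), the lists had their strongest peak at different places, and 14 were lower. Over all genes, whether or not their strongest peaks overlapped, 73.4% were lower in KO. To hold place fixed, the other list was read at the strongest peak of one. At the place of the strongest WT peak, 48 of 49 genes had a KO peak, beside 11407 of 13364 over all genes. Among these 48, 46 stood lower in KO (78.0% of all genes with a partner there), with a median difference of -0.53 against -0.31 over all genes. Of the 48, 3 were lower by 1 or more (9.82% of all genes): Kdm4b, Setd5 and Nsd2. At the place of the strongest KO peak, where the choice works the other way, 45 of 50 had a WT peak, beside 11372 of 13028 over all genes. Among these 45, 38 stood lower in KO (67.7% of all genes), with a median of -0.50 against -0.19 over all genes. By 1 or more, 2 were lower (8.38% of all genes). Kdm1b (0.88 in WT and 1.14 in KO), Kdm6a (0.70 and 1.25), Nsd3 (0.95 and 1.19), Prdm15 (0.81 and 1.30) and Setdb2 (0.91 and 0.97) stood higher in KO at that place, as did Ehmt2 and Ezh1.

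Peak by peak, 225 WT and KO peaks of these genes were each other's best overlap. Of these pairs, 166 (73.8%, 95% Wilson interval 67.7 to 79.1) were lower in KO, beside 70.3% of 26133 pairs over all genes, and the medians were -0.15 and -0.12. Pairs of the same gene share its RNA. Among the pairs, 6 were lower in KO by 1 or more (5.34% of all pairs) and 0 higher (0.279%): 2 in Nsd1, 2 in Nsd2, and 1 each in Kdm4b and Setd5. In each of the 6 the WT peak spanned more than 1000 bases. Of 97 pairs with both peaks at most 1000 bases wide, 64 stood lower in KO (median -0.06), beside 61.7% of such pairs over all genes (median -0.06). Of 128 wider pairs, 102 stood lower (median -0.28), beside 78.2% of such pairs over all genes (median -0.23). The 17 pairs with identical coordinates had a median of -0.05 (95% interval -0.12 to 0.03), beside -0.06 over all genes.

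**Figure D4:**
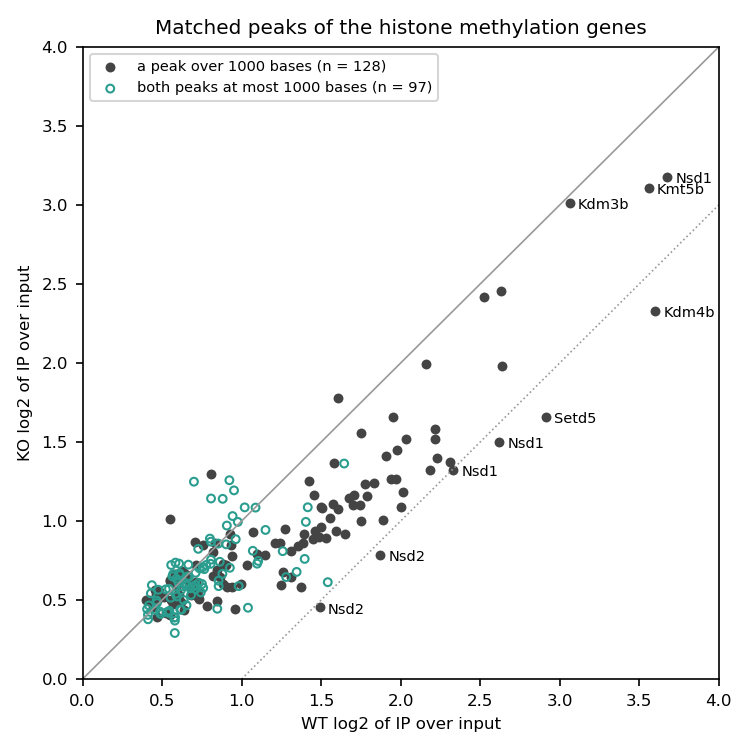
Log2 of IP over input in WT (x) and KO (y) for 225 matched peaks of the histone methylation genes, filled where a peak of the pair spans more than 1000 bases (128 pairs) and open where both are shorter (97 pairs). The solid line marks equal values and the dotted line a KO value lower by 1; 6 named pairs of Nsd1, Nsd2, Kdm4b and Setd5 lie on or below the dotted line.

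Overlap with any peak of the other list, on the same strand and by at least 1 base, was found for 83.1% (78.4 to 86.9) of the 295 WT peaks and 77.4% (72.7 to 81.6) of the 337 KO peaks, against 77.2% and 72.9% over all genes. The 50 WT peaks without a partner had a median of 0.59 and the 76 such KO peaks one of 0.53, while peaks with a partner had medians of 0.81 and 0.67. All 20 WT peaks at 4-fold or more had a KO partner, as had all 6 such KO peaks in WT, against 83.7% and 91.5% of such peaks over all genes. Of the WT peaks, 37 (12.5%, 9.24 to 16.8) overlapped 2 or more KO peaks, against 9.59% over all genes. Of the KO peaks 23 (6.82%, lower bound 4.59%) overlapped 2 or more WT peaks, against 5.43%. A stretch listed as several peaks has several values, and the part of this in the differences was not tested.

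By the authors' annotation, 3' UTRs held 50.8% (45.2 to 56.5) of the WT peaks of these genes and coding exons 36.6% (31.3 to 42.2), against 53.0% and 21.1% over all genes. In KO the shares were 48.7% (43.4 to 54.0) and 37.1% (32.1 to 42.4), against 51.4% and 25.1%. The coding-exon share of the histone methylation genes thus lay above that of all genes in both lists, with intervals that exclude the value of all genes. The intervals cover counting of peaks, and peaks of 1 gene share its RNA. The coding-exon peaks were weaker than the 5' UTR peaks, with medians of 0.65 and 1.03 in WT. Noncoding exons, 8.15% of all WT peaks, held 0 of 295. The 49 genes with a WT peak all encode protein, so this count follows from the name rule and is no trait of these genes. Noncoding-exon peaks also count in the total from which the 21.1% over all genes was taken.

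**Figure D5:**
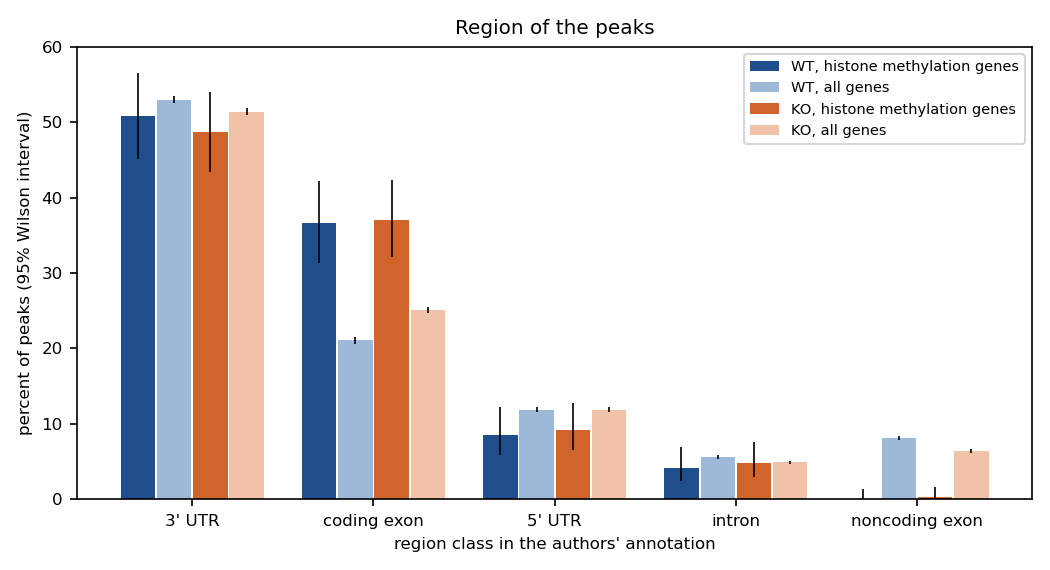
Percent of peaks in each region class of the authors' annotation, with 95% Wilson intervals, for the histone methylation genes (dark; 295 WT and 337 KO peaks) and all genes (light; 36682 and 41153). Coding exons hold 36.6% and 37.1% of the histone methylation peaks, against 21.1% and 25.1% over all genes.

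The 3' UTR label did not always mean the end of the gene. Of 150 WT peaks with that label, 73 (48.7%, 40.8 to 56.6) ended more than 1000 bases before the annotated gene end, and in KO 94 of 164 (57.3%, 49.7 to 64.6), against 41.6% and 43.6% over all genes. Of the 27 genes whose strongest WT peak was labelled 3' UTR, 12 had it that far inside, including Setd2, Nsd2 and Kdm6a. Kdm5a (4708 bases before the end) and Kdm7a (5525 bases) were further cases. By contrast, the strongest peaks of Kdm4b, Kdm4a, Kdm8 and Prdm4 ended at the last base of the gene in both lists.

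The proteins that work with these enzymes were read from fixed lists, whose counts stand beside the 73.4% of all genes with a lower KO value and their median of -0.25. All 15 listed subunits of the COMPASS and MLL complexes, which hold the H3K4 methyltransferases, had a peak in each list. The KO value was the lower one for 14, and the median difference was -0.43. Bod1 (2.52 and 1.93) and the scaffold Men1 (2.31 and 1.66) had the highest WT values, and Wdr82, which tethers the SET1 complexes to RNA polymerase, stood at 1.95 and 0.95. The core subunits Wdr5 (0.61 and 0.54) and Dpy30 (0.58 and 0.59) were weak and alike in both. Of 11 listed PRC2 genes, 10 had peaks and 7 of these stood lower in KO (median difference -0.12). Epop (3.25 and 2.08) and Aebp2 (1.98 and 1.58) led them.

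Shares in other families were close to that of all genes. Of 9 further JmjC-domain genes with peaks (12 listed), 7 were lower in KO, led by Riox2 (3.04 and 2.56) and Jmjd4 (2.57 and 1.97). Of 5 SMYD and other SET genes (7 listed), 4 were lower, with Smyd5 at 2.51 and 1.46 and Setmar at 1.86 and 1.61. Of 8 arginine methyltransferase genes (9 listed), 6 were lower; Prmt1, the main asymmetric arginine methyltransferase, stood at 3.73 and 3.74, and Prmt9 at 3.15 and 2.16, although the mean over its peaks was higher in KO, by 0.63. Among 12 co-repressor partners 9 stood lower in KO, the median being -0.18, led by Phf21a (2.77 and 1.90), a subunit of the LSD1 complex. Wiz, the zinc-finger partner of Ehmt1 and Ehmt2, was at 2.38 in WT and 0.56 in KO.

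The gene ontology and pathway terms in the lists gave a wider view that did not use the name rule. Of 48 genes with a peak and the KEGG term lysine degradation, 28 were among the genes described here, and 41 of the 48 stood lower in KO (median difference -0.38). Of 50 genes with a histone methyltransferase activity term, 43 were lower, with a median of -0.47. Of 22 with the histone demethylase activity term, 19 were lower, with a median of -0.42. Over all genes, 73.4% were lower, with a median of -0.25. The 2 broader terms lay nearer to that: chromatin organization with 206 of 271 genes lower (median -0.32) and zinc ion binding with 369 of 481 (median -0.35). These sets share genes with the 50 and with one another, so they are no separate support.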

How the data were processed

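The authors deposited 1 peak list per genotype. Per the file headers, a peak carries the authors' log2 enrichment (IP against input), its region class and gene, and both a raw and an adjusted p-value. The submitters' processing notes name edgeR, StringTie, HOMER, HISAT2, FastQC and fastp without versions or roles. Peak caller, build and pooling of replicates: not given in the sources used here. Starts were read as counted from 0 and are printed 1-based; a peak's span includes introns. Every deposited raw p-value is below 0.05; the adjusted one exceeds 0.05 for 106 WT and 122 KO peaks.

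A gene's value is its strongest peak. Shares have 95% Wilson intervals and medians 95% order-statistic intervals, which cover counting only. Of each gene with a peak, the value in both lists is named; position and adjusted p follow for the strongest gene of each role group, genes past or near a difference of 1, Kdm6b, Setd2 and Kdm3b. Adjusted p-values deposited as 0 are not printed. Genes that are not members are named for the 2 highest WT values of their list or a difference of 1; Wdr5, Dpy30 and the markers named were chosen after their values were seen, as were the same-place reading, the matched pairs, the grouping by WT value, the motif search and the annotation terms. The genes and lists were chosen with earlier results of these data known. Overlap code was tested on simulated data against bedtools 2.31.1. Values were computed in Python 3.11.15 with SciPy 1.17.1, numpy 2.4.6 and pandas 2.3.3 and drawn with matplotlib 3.10.9.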

Additional observations from a re-analysis of the deposited data

How the results depend on the processing

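No paired analysis was possible because each genotype has 1 deposited list, without values per replicate; leaving out a replicate was not possible for the same reason. Of the settings tried, the limit to peaks of at most 1000 bases moved the median difference most: 153 WT and 174 KO peaks were left, 64.7% and 61.5% of them in 3' UTRs, 65.4% and 58.0% overlapped a peak of the other list, 2 genes had a WT peak alone and 3 a KO peak alone, and the median difference was -0.041 (-0.054 over all genes). With these short peaks 26 of 45 genes were lower in KO, 1 of them by 1 or more, and 17 of 45 turned order; Setd5 stood at 0.11, Wdr82 at 0.072, Smyd5 at 0.00040 and Setmar at 0.30. The one lower by 1 or more was Kdm2b, whose KO peak of 1174 bases that setting leaves out. With peaks of 4-fold or more, 15 WT and 6 KO genes with 20 and 6 peaks were left, 30% and 100% overlapped, 33.3% of the KO peaks were in 3' UTRs, 9 genes had a WT peak alone and 0 a KO peak alone, and 6 genes in both lists were lower in KO, 1 of them by 1 or more, with a median of -0.31. The median over all 1263 genes in both lists at that setting was -0.65, a larger drop than that of the 6. With the peaks of a gene averaged, the median was -0.20 (-0.17 over all genes), 44 of 49 were lower in KO and 0 by 1 or more, 5 turned order, and Epop stood at 0.032, Prmt9 at 0.63 and Prmt1 at -0.58. Centring sets the median over all genes to 0. Centred in this way, the histone methylation genes had a median of -0.27, with 35 of 49 lower and 1 (Kdm1a) higher by 1 or more. At 1.5-fold, 19 were lower (28.0% of all genes) and 1 higher (2.22% of all genes). An adjusted p of at most 0.001 and equal numbers of peaks each left 1 gene (Kdm8) with a WT peak alone and 0 with a KO peak alone; with equal numbers 78.3% of WT peaks overlapped a KO peak. A reciprocal overlap of 50% gave 55.6% of WT and 48.7% of KO peaks. Of the 44 genes with a value in each of 5 settings (adjusted p, short peaks, equal numbers, peaks inside the gene and mean over peaks), 24 kept their order in all 5; Ezh2, Kdm4b, Kdm8, Prdm4 and Prdm9 lacked a value in at least 1. Apart from those at 1.5-fold, shares over all genes were not computed at these settings. The counts and overlap shares given for a setting therefore cannot be called particular to these genes. Depth per library is unknown, so its limits could not be given.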
